A study of Homo sapiens with 6 samples.

Results

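The ZNF genes of human chromosome 19 were followed in LX2 cells, a line of activated hepatic stellate cells of wild-type genotype, after knockdown of AURKA, the gene of the cell division kinase Aurora A. Members were all protein-coding genes of chromosome 19 whose symbol is ZNF followed by a number, with or without 1 closing letter. There were 246 of them among 58243 gene identifiers. The cells had received small interfering RNA against AURKA (siAURKA) or control small interfering RNA (siNC) for 48 h, with 3 libraries per group, numbered 1 to 3. All 6 libraries come from 1 cell line, and nothing in the labels says that they came from separate cultures. The p-values then measure only how far these libraries vary, and that variation may be technical. The rule itself uses names and positions. It was proposed, however, with the siAURKA against siNC comparison of these data already known, and in that sense the members were chosen by their log2 fold changes and pair ratios. For that reason the counts and medians over members in that comparison are descriptions, and none of them was tested.

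ZNF proteins carry zinc fingers of the C2H2 type, loops held together by a zinc ion, which bind DNA in tandem arrays. Many ZNF genes of chromosome 19 arose by repeated tandem duplication and still lie side by side in clusters on both arms. A large share of them encode a KRAB domain, which recruits the corepressor TRIM28 and, through it, the histone methyltransferase SETDB1 and heterochromatin proteins. Transposable elements are among their best-known targets. The clusters are themselves packaged by some of their products, since ZNF274 binds the 3′ ends of ZNF genes and recruits SETDB1 there.

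AURKA itself was read at 135.8, 128 and 95.02 CPM (counts scaled to library size with TMM factors) in siNC libraries 1, 2 and 3, and at 49.8, 47.0 and 51.1 CPM in siAURKA libraries 1, 2 and 3. Its level was 2.43-fold lower in siAURKA, and the groups did not overlap. The edgeR quasi-likelihood test gave a log2 fold change of -1.28 (SE 0.28) with an unadjusted p of 0.00198 and an adjusted p of 0.9999, DESeq2 gave an adjusted p of 0.0314, and DESeq2 with the replicate number as a block gave 1.4e-06. Column totals ran from 23366242 to 53357402 units. The mean annotated exonic GC content of genes, weighted by each gene's share of the deposited counts, differed by replicate number. It was 49.2%, 53.4% and 51.6% in siNC and 49.5%, 52.3% and 51.2% in siAURKA libraries 1, 2 and 3. The GC content of the reads themselves was not measured. Of 14 stellate cell markers, 13 passed the expression filter, with VIM the most abundant. That filter admits low levels, as PDGFRA and DES passed with means of 0.57 and 0.47 CPM in siNC. It also passed 7 of 9 leukocyte and macrophage markers. The hepatocyte genes ALB, APOB, APOA2, TTR, FGB and FGA were listed at 0 in all 6 libraries. SERPINA1, of the same list, had a mean of 30.1 CPM in siNC.

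Most chromosome 19 ZNF genes were expressed at a low level. Of the 246, 228 passed edgeR's expression filter, as did 18775 genes in all. The other 18 had mean levels of at most 0.121 CPM, and 10 of these were listed at 0 in every library (ZNF257, ZNF676, ZNF729, ZNF99, ZNF723, ZNF728, ZNF724, ZNF536, ZNF541 and ZNF578). For scale, 3 fragments, the limit that a count of 0 allows, come to between 0.225 and 0.514 counts per 1000000 of a library's unscaled total, without the TMM factor that the CPM values here carry, if 1 fragment is worth 4 deposited units. Per kilobase of merged exons, the median tested member stood at 1.10 CPM per kilobase in siNC (quartiles 0.57 and 1.76), against 3.47 for all tested genes. Only 13 members exceeded 5 CPM per kilobase. ZNF358 led with a level of 61.9 ± 32.6 CPM per kilobase (SD, n = 3), followed by ZNF428 at 25.8 ± 6.18, ZNF787 at 19.4 ± 13.4, ZNF581 at 16.4 ± 11.9, ZNF865 at 16.3 ± 10.1 and ZNF580 at 15.05 ± 10.3 CPM per kilobase. Next came ZNF574 at 12.1 ± 5.82, ZNF579 at 11.7 ± 9.53, ZNF146 at 9.92 ± 7.0 and ZNF526 at 8.81 ± 5.05 CPM per kilobase. Neighbours in this order differed by less than the larger of their SDs, except ZNF358 from ZNF428, where the gap barely exceeded the SD of ZNF358. These 10 genes held 27.2% of the summed CPM of all members in siNC. All of them except ZNF146 had exons of at least 50% GC, whereas 212 of the 246 members lay below 50% and the median member was at 43.3%.

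Members were higher in siAURKA more often than lower, by small amounts. Of the 228 tested, 156 had an edgeR log2 fold change above 0, or 68.4%, beside 48.5% of all tested genes. The median log2 fold change of the tested members was 0.24 (quartiles -0.05 and 0.47), beside -0.01 over all tested genes. ZNF genes of other chromosomes (232 tested of 262) had a median of 0.06, and the other protein-coding genes of chromosome 19 (833 tested of 1221) a median of -0.11. A further 17 zinc finger genes of chromosome 19 with other symbols (ZFP, ZSCAN, ZIM, ZBTB, ZIK1 and PEG3) contributed 10 tested genes with a median of -0.11, 4 of them above 0. In bulk RNA, fewer cells of a kind and less RNA per cell cannot be told apart.

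The size of the shift differed between same-numbered pairs. The median log2 ratio of the tested members was 0.03 in pair 1, 0.54 in pair 2 and 0.26 in pair 3, while all tested genes had medians of -0.02, 0.03 and 0.00. ZNF genes of other chromosomes had pair medians of -0.03, 0.25 and 0.14, and the other protein-coding genes of chromosome 19 had 0.02, -0.20 and -0.10. Pair 1 thus showed almost no shift of the members. A single library moved the median strongly. It was 0.08 without siNC library 2, 0.09 without siAURKA library 1 and 0.55 without siNC library 1, with 60.7%, 57.3% and 81.1% of tested members above 0. Without both libraries of pair 2 the median was 0.17, with 64.2% above 0.

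**Figure D1:**
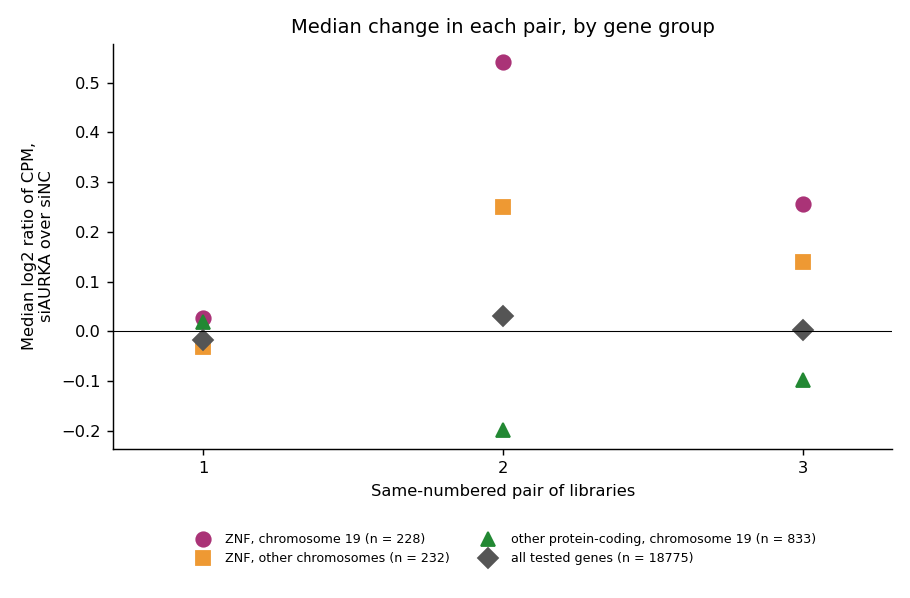
Median log2 ratio of CPM (siAURKA over siNC, y axis) over the tested genes of 4 gene groups in each same-numbered pair of libraries (x axis), 1 point per group and pair. The chromosome 19 ZNF genes lie at 0.03, 0.54 and 0.26, above the other 3 groups in each pair, with the smallest distance in pair 1.

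In summed level the members hardly separated the groups. Together they were at 2235, 1979 and 1888 CPM in siNC libraries 1, 2 and 3 and at 2334, 2153 and 2100 CPM in siAURKA libraries 1, 2 and 3, or 2034 ± 180 against 2196 ± 123 CPM (SD, n = 3), and the groups overlapped, although each siAURKA library was above the siNC library of its number. The split by GC content showed larger differences between replicate numbers than between treatments. Members under 50% GC summed to 1781, 858 and 1142 CPM in siNC and to 1875, 1251 and 1395 CPM in siAURKA, so that library 1 of either group stood above every library 2 or 3. Members at or over 50% GC summed to 454, 1121 and 746 CPM in siNC and to 460, 902 and 705 CPM in siAURKA, in the reverse order. The part of base composition in the result was not tested.

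**Figure D2:**
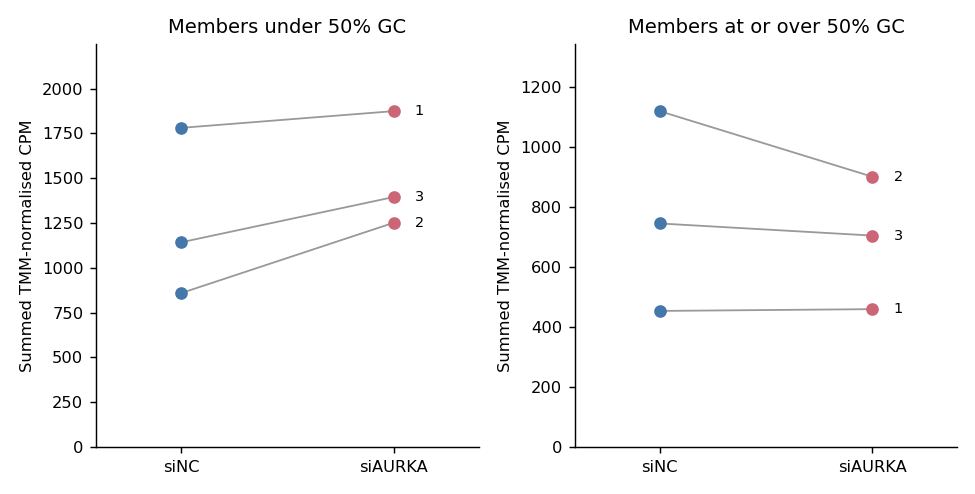
Summed TMM-normalised CPM (y axis) of the members under 50% exonic GC (left) and at or over 50% (right) in each siNC and siAURKA library, with lines joining libraries of the same number. Under 50% GC the sum is higher in siAURKA in all 3 pairs, by the most in pair 2 (858 and 1251 CPM), and at or over 50% GC it is lower in pairs 2 and 3.

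In each of 6 GC classes the median log2 fold change of the members lay above that of other genes, by the least in the class of highest GC, but not in every pair. Members under 40% GC (34 tested) had a median log2 fold change of 0.25 against 0.09 for other tested genes of that class. The corresponding medians were 0.37 against 0.10 at 40 to 42%, 0.23 against 0.09 at 42 to 44%, 0.24 against 0.05 at 44 to 46% and 0.25 against 0.02 at 46 to 50%. From 50% upwards the 31 tested members had a median of -0.07, beside -0.10 for other genes. In pair 1 the members lay below other genes in 3 of the 6 classes, with median log2 ratios of -0.12 against -0.10 under 40% GC, -0.06 against -0.0093 at 42 to 44% and -0.0087 against 0.0034 from 50% upwards. In pair 2 they lay below them from 50% upwards (-0.18 against -0.17), and in pair 3 in none. The 197 tested members under 50% GC had pair medians of 0.04, 0.60 and 0.29. With offsets for GC content and length in the edgeR fit, the median over all tested members was 0.21, against 0.01 for all genes. Over the 228 tested members, which share libraries and depth, the Spearman correlation of the log2 fold change was -0.18 with GC content, 0.16 with exonic length and 0.19 with the number of C2H2 fingers, counted as a pattern in the longest annotated coding sequence (median 12 per gene, from 0 in ZNF738 to 36 in ZNF208). Over all tested genes the correlation with GC content was -0.23.

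**Figure D3:**
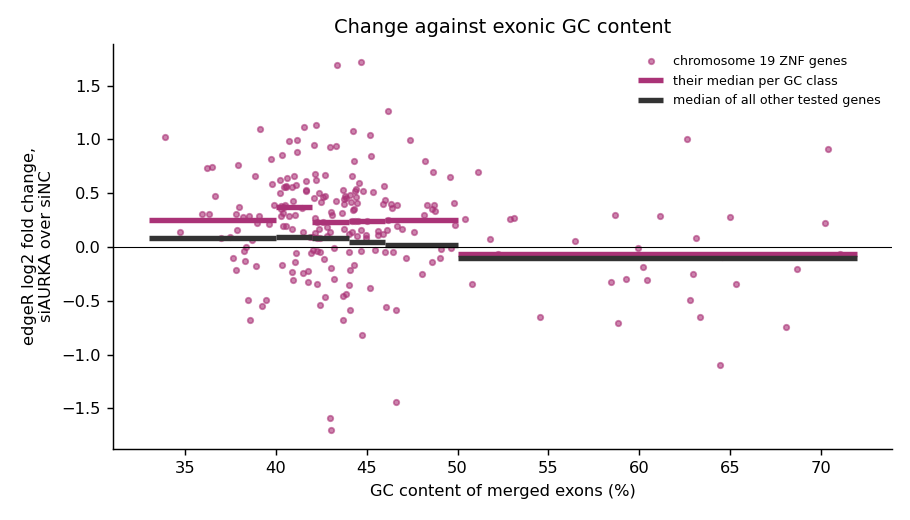
edgeR log2 fold change (siAURKA over siNC, y axis) of each tested member against the GC content of its merged exons (x axis, percent), with horizontal bars for the median of the members and of all other tested genes in 6 GC classes. The member medians lie between 0.23 and 0.37 in the 5 classes under 50% GC and at -0.07 above.

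Along the chromosome, no cluster stood out as the sole source of the shift. The tested members of 19p (72 of 83) stood at a median log2 fold change of 0.23, those of 19q (156 of 163) at 0.25. By pair the medians were -0.05, 0.61 and 0.26 on 19p and 0.06, 0.49 and 0.24 on 19q. On 19p the median was 0.01 without siNC library 2 and 0.02 without siAURKA library 1, and on 19q it was 0.13 and 0.11, so that the shift on 19p rested more on those 2 libraries. The Spearman correlation between chromosomal order and log2 fold change over the tested members was 0.01. Runs of at least 5 members with gaps of at most 1 Mb formed 9 clusters, which held 235 members, and the other 11 were isolated.

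On 19p lie 4 clusters. The most distal (ZNF554 to ZNF77, chr19:2819874-2944971, GRCh38) holds 5 members, 4 of them tested, with a median log2 fold change of 0.09. Its most abundant member per kilobase, ZNF57, was lower in all 3 pairs (log2 fold change -0.59, SE 0.59). The cluster from ZNF557 to ZNF846 (chr19:7069444-9793180) had a median of 0.11 over 14 tested members of 15 and contains both ZNF358, the most abundant member, and ZNF562. In the cluster from ZNF653 to ZNF791 (chr19:11483427-12640098) all 25 members were tested, with a median of 0.23. There, 6 members were higher in all 3 pairs (17.9% of all tested genes) and 0 lower (17.6%). The primate-expanded block from ZNF101 to ZNF254 (chr19:19668796-24129961) was the least expressed, with a median of 0.34 CPM per kilobase over its members in siNC. Of its 37 members 28 were tested, with a median log2 fold change of 0.28, and 7 were listed at 0 in every library.

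On 19q lie 5 clusters. Counts of their members higher or lower in all 3 pairs stand beside 17.9% and 17.6% of all tested genes. The small cluster from ZNF302 to ZNF792 (chr19:34677639-34964049) had a median log2 fold change of 0.17 over 5 tested members. Next, ZNF565 to ZNF573 (chr19:36182060-37817300) had 24 tested members of 26, a median of 0.23, and 10 members higher in all pairs against 1 lower. All 24 members from ZNF575 to ZNF296 (chr19:43525497-45076588), which include ZNF227, were tested, with a median of 0.29 and counts of 7 and 0. The cluster from ZNF175 to ZNF331 (chr19:51571298-53580269) had the highest median, 0.43 over 37 tested members of 39, with 30 above 0, 21 higher in all 3 pairs and 4 lower. Its pair medians were 0.14, 0.93 and 0.38. That median was 0.16 without siAURKA library 1, 0.17 without siNC library 2, 0.28 without siNC library 3 and 0.82 without siNC library 1. It was not the highest without siAURKA library 1, where ZNF302 to ZNF792 stood at 0.23, or without siNC library 1, where ZNF101 to ZNF254 stood at 0.91. The most distal and largest cluster, ZNF628 to ZNF446 (chr19:55476332-58481230), had a median of 0.15 over 58 tested members of 59, with 32 above 0, 15 higher in all pairs and 5 lower. No difference between clusters was tested, and leaving out 1 library moved the median of every cluster by over 1.5 times. Without siNC library 2 the medians of ZNF557 to ZNF846, ZNF653 to ZNF791 and ZNF302 to ZNF792 were -0.04, -0.02 and -0.04. Without siAURKA library 1 that of ZNF101 to ZNF254 was -0.02, and without both libraries of pair 2 those of ZNF554 to ZNF77 and ZNF557 to ZNF846 were -0.0015 and -0.06.

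**Figure D4:**
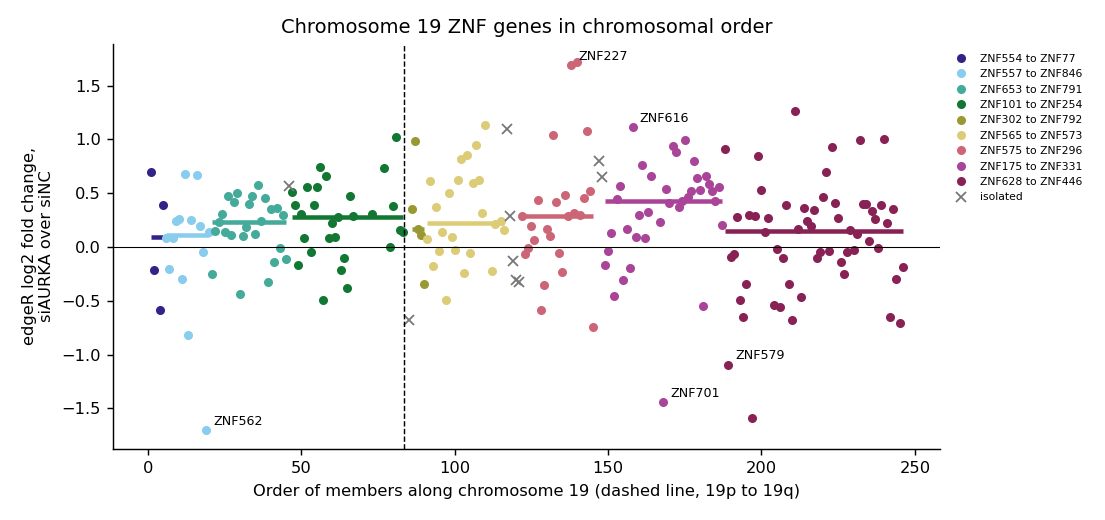
edgeR log2 fold change (siAURKA over siNC, y axis) of the 228 tested members in their order along chromosome 19 (x axis), coloured by cluster, with a bar at each cluster's median and a dashed line between the arms. All 9 cluster medians lie above 0, from 0.09 to 0.43, although leaving out single libraries or a pair takes 5 of them below 0, and each cluster has members above and below 0.

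For single genes the edgeR test called 0 members, and 0 of 18775 genes in all (0.00%), at an adjusted p of 0.05. At an unadjusted p under 0.05 it counted ZNF227, ZNF616 and ZNF600 as higher, 3 members, where 0.623% of all tested genes did so, and ZNF562 and ZNF701 as lower, 2 members, where 0.639% of all tested genes did so. DESeq2 called 1 member, ZNF227, as higher, beside 0.0479% of all genes. With the replicate number as a block, DESeq2 called ZNF227 and ZNF616 higher, beside 0.501% of all genes, and ZNF562 lower, beside 0.810%. edgeR with the block called 0 of all genes (0.00%), and at an unadjusted p under 0.05 it counted 22 members higher, beside 3.93% of all tested genes, and 4 lower, beside 4.55%. limma-voom called 0 with and without the block. By ranges alone, the groups did not overlap for 18 members that were higher in siAURKA, where 3.33% of all tested genes did the same, and for 3 that were lower, where the share of all genes was 2.52%. In all 3 same-numbered pairs, 76 members were higher (17.9% of all tested genes) and 17 lower (17.6%). Of the 76, 73 were among the 197 tested members under 50% GC. Of the 17, 9 were among those 197 and 8 among the 31 tested members at or over 50% GC. The shares of all tested genes cover any GC content. Since members were chosen with this comparison known, nothing is read from these shares.

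The promoters of the 3 members called by DESeq2 are shown because these genes carry the single-gene results, and because promoters of the family share short sequence matches. Each runs from 250 bases before to 50 bases after the RefSeq transcription start (GRCh38.p14), 5′ to 3′ on the gene's strand, with the ETS core CGGAAG or its reverse complement in capitals. The windows are chr19:44212282-44212581 (plus strand) for ZNF227, chr19:9675051-9675350 (minus strand) for ZNF562 and chr19:52139889-52140188 (minus strand) for ZNF616.
ZNF227: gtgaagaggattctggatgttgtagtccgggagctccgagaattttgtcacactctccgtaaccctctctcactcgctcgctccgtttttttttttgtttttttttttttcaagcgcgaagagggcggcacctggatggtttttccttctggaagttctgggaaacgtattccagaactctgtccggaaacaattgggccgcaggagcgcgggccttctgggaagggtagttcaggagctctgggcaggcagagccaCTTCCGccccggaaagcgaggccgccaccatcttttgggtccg
ZNF562: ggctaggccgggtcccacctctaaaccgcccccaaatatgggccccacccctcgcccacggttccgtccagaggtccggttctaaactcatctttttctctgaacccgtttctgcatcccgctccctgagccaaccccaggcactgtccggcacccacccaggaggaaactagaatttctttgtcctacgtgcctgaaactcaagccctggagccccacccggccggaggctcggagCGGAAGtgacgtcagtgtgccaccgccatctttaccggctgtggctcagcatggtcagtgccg
ZNF616: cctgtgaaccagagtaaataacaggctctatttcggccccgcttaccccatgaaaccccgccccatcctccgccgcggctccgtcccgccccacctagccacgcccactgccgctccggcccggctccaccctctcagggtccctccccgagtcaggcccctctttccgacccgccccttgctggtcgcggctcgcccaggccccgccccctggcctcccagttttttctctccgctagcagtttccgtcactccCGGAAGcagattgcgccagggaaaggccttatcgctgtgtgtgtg
Each of the 3 windows holds 1 match to that core.

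Over the family, 214 of the 246 members had a promoter window in RefSeq. The ETS core CGGAAG was present on either strand in 125 of them (58.4%), against 19.9% of all 27305 promoter windows. The ZNF143 motif, read as ACTACA followed after any 2 bases by TCCC, occurred in 15.4% against 1.96%, CCAAT in 53.7% against 35.7%, the SP and KLF GC box GGGCGG in 68.2% against 44.6%, and the TATA box TATAAA in 1.87% against 11.95%. In percentage points, though not always as a ratio, shares lay closer together for TGACGTCA, the cAMP response element (3.27% against 1.98%). The same held for AAGATGG, the YY1 motif (7.94% against 6.06%). No motif letters contain another motif of this set. Member windows had a median GC content of 59.7%, close to the 58.3% of all windows, so that low GC is a property of the members' exons and not of their promoters. They differed more in CpG (a C followed by a G), with a median of 20 against 14 in all windows. The ETS core, the GC box and the cAMP response element each contain a CpG. The part of CpG content in the motif shares was not tested. Tested members with the ETS core stood at a median log2 fold change of 0.21, those without it at 0.25. For the GC box the medians were 0.27 with and 0.15 without a match, for the ZNF143 motif 0.32 and 0.22, for CCAAT 0.23 and 0.24 and for the YY1 motif 0.19 and 0.24. The cAMP response element (7 tested members with a match) had -0.05 and 0.24, and the TATA box (4 with a match) 0.27 and 0.23. None of these differences was tested.

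ZNF227 (ENSG00000131115, 19q, chr19:44207547-44237268, plus strand) had the smallest p of all members. Its level was 5.01, 4.58 and 3.64 CPM in siNC libraries 1, 2 and 3 and 15.7, 10.5 and 16.6 CPM in siAURKA libraries 1, 2 and 3. Every siAURKA library lay above all siNC libraries, and the level was 3.23-fold higher (4.41 ± 0.70 against 14.2 ± 3.28 CPM, SD, n = 3). A log2 fold change of 1.69 (SE 0.34) was fitted. The unadjusted edgeR p was 0.00131, beside DESeq2 adjusted p-values of 0.016 without and 7.6e-05 with the block. Exons of other genes cover 19.1% of its exonic bases, chiefly those of ZNF235 on the other strand, whose own log2 fold change was 0.32. Whether counting used strand is not given, so reads in the shared stretches cannot be assigned to 1 of the 2 genes.

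ZNF562 (ENSG00000171466, 19p, chr19:9641808-9675086, minus strand) changed the other way. It was read at 18.5, 15.1 and 13.0 CPM in siNC and at 3.37, 8.15 and 2.78 CPM in siAURKA libraries 1, 2 and 3. All siAURKA libraries lay below all siNC libraries, with a level 3.25-fold lower (15.5 ± 2.78 against 4.77 ± 2.95 CPM). The edgeR log2 fold change was -1.70 (SE 0.48, unadjusted p 0.00803), and the adjusted p of DESeq2 was 0.413 without and 0.000418 with the block. Its exons overlap those of ZNF561-AS1 on the other strand over 18.9% of their length, and that gene had a log2 fold change of 0.08.

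ZNF616 (ENSG00000204611, chr19:52113091-52139922, minus strand) lies in the 19q cluster from ZNF175 to ZNF331. Its values were 5.82, 3.39 and 3.39 CPM in siNC and 11.4, 9.27 and 6.63 CPM in siAURKA. The groups did not overlap. Its log2 fold change was 1.11 (SE 0.39, unadjusted edgeR p 0.0227), with a DESeq2 adjusted p of 0.0166 with the block, while without it DESeq2 made no call.

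Further members were higher in all 3 pairs without passing an adjusted threshold in any fit. ZNF600 was at 3.41, 1.81 and 2.80 CPM in siNC and 4.83, 6.07 and 4.54 CPM in siAURKA, a log2 fold change of 0.94 (SE 0.38). ZNF17 was at 3.64, 1.0 and 4.70 CPM and then 9.29, 6.69 and 6.63 CPM, a log2 fold change of 1.27 (SE 0.56). For both genes the groups did not overlap, with the lowest siNC value in library 2. ZNF888 (log2 fold change 0.99, SE 0.43), ZNF667 (0.84, SE 0.43), known in the rat as the ischaemia-induced gene Mipu1, ZNF426 (0.67, SE 0.34) and ZNF211 (0.69, SE 0.36) also had groups that did not overlap. ZNF570 (1.14, SE 0.57) and ZNF28 (0.88, SE 0.45) were higher in each pair with overlapping groups. ZNF600 and ZNF888 share 10.8% and 15.5% of their 50-base stretches with other genes, so their counts may be split with relatives.

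Fewer members were lower in all 3 pairs. ZNF701 was at 3.48, 1.81 and 2.80 CPM in siNC and 1.08, 1.37 and 0.53 CPM in siAURKA, and the groups did not overlap (log2 fold change -1.44, SE 0.52). Its exons overlap those of ZNF808 on the same strand, which had a log2 fold change of 0.23. ZNF792 differed less, from 6.35, 5.73 and 5.43 CPM in siNC to 5.23, 4.45 and 4.14 CPM in siAURKA, again without overlap (-0.34, SE 0.31). ZNF324 (-0.71, SE 0.59), ZNF581 (-0.65, SE 0.58), ZNF264 (-0.54, SE 0.76), ZNF461 (-0.49, SE 0.44), ZNF613 (-0.46, SE 0.45) and ZNF526 (-0.32, SE 0.46) were lower in each pair, but their groups overlapped. ZNF446 on the same strand shares exons with ZNF324, whose exonic bases are covered to 25.1% by other genes.

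**Figure D5:**
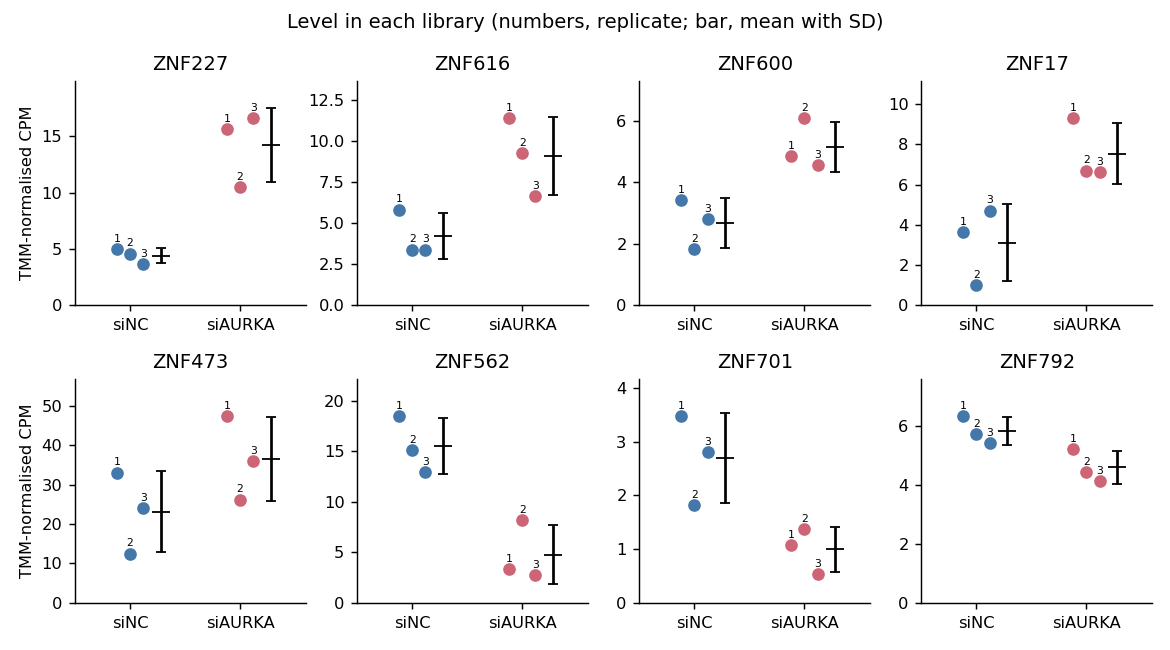
TMM-normalised CPM (y axis) of 8 members in each siNC and siAURKA library, with replicate numbers above the points and the mean ± SD (n = 3) beside them. ZNF227, ZNF616, ZNF600 and ZNF17 lie higher in every siAURKA library than in any siNC library, ZNF562, ZNF701 and ZNF792 lie lower, and ZNF473 overlaps between groups.

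Members with described functions were called by none of the edgeR, DESeq2 or limma-voom fits to all 6 libraries. ZNF274 was at 24, 15.8 and 20.9 CPM in siNC and 25.9, 23.4 and 23.5 CPM in siAURKA (log2 fold change 0.26, SE 0.29). ZNF91 and ZNF93, repressors of SVA and LINE-1 retrotransposons, had log2 fold changes of -0.0032 (SE 0.69) and 0.09 (SE 0.45), and their siNC libraries ran from 3.34 to 20.4 CPM and from 5.11 to 13.3 CPM. The sign of ZNF91 differed between settings, turning positive with a replicate block in all 3 tools. Without a block it was also positive in limma-voom (0.20), with offsets for GC and length (0.051), library totals (0.011) and no filter (0.035). Both ZNF91 and ZNF93 changed sign when single libraries were left out. ZNF473, a protein of the U7 particle that processes histone transcripts, was at 33.03, 12.5 and 23.9 CPM in siNC and 47.4, 26.2 and 35.9 CPM in siAURKA. It was higher in each pair with overlapping groups (log2 fold change 0.66, SE 0.43), and DESeq2 with the block gave an adjusted p of 0.0877.

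Of the other members with described roles, ZNF146, a protein made almost only of zinc fingers, was higher in each pair (15.2 to 72.5 CPM in siNC, 44.01 to 97.5 CPM in siAURKA, log2 fold change 0.61, SE 0.59). ZNF675, which binds and inhibits the signalling adaptor TRAF6, had a log2 fold change of 0.38 (SE 0.50), and ZNF331, an imprinted gene, one of 0.21 (SE 1.0) with siNC libraries between 1.05 and 19.9 CPM. ZNF671 and ZNF154, whose promoters are often methylated in tumours, had values of 0.41 (SE 0.36) and 0.93 (SE 1.06), and ZNF154 stayed under 1 CPM in every library, with 0 in siNC library 2. ZNF224, a repressor of the aldolase A gene, had a log2 fold change of -0.05 (SE 0.70), and other genes cover 40.5% of its exonic bases. ZNF43 had one of 0.29 (SE 0.62). The most abundant members of the remaining clusters, ZNF653, ZNF302 and ZNF83, had values of -0.25 (SE 0.40), 0.35 (SE 0.68) and 0.54 (SE 0.50).

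Of the 10 most abundant members, all except ZNF146 had a log2 fold change below 0. ZNF358 was at 63.6, 198.1 and 122.4 CPM in siNC and 56.7, 169.4 and 106.4 CPM in siAURKA, a log2 fold change of -0.21 (SE 0.53). Library 2 was the highest and library 1 the lowest in both groups. ZNF787 (-0.34, SE 0.62), ZNF574 (-0.30, SE 0.44), ZNF580 (-0.50, SE 0.53), ZNF865 (-0.07, SE 0.56) and ZNF428 (-0.01, SE 0.31) had values below 0, each smaller in size than its SE. ZNF579 had a log2 fold change of -1.09 (SE 0.58). The value of ZNF579 rested on siNC library 2, at 74.5 CPM against 14.6 and 27.0 CPM in the other siNC libraries. Without that library it was -0.20, and ZNF358, ZNF787, ZNF574, ZNF428, ZNF865, ZNF581 and ZNF526 then had values above 0. Under settings that kept every library or dropped a whole pair, ZNF428 turned positive in 9 and ZNF865 in 4. Exons of other genes cover 34.4% of ZNF358 and 27.6% of ZNF428, and ZNF580 and ZNF581 overlap each other on the same strand.

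Partners of KRAB zinc finger proteins had values on both sides of 0. Among 26 genes for corepressors and heterochromatin proteins, 25 were tested, with a median log2 fold change of 0.06, 7 higher in all 3 pairs (17.9% of all tested genes) and 6 lower (17.6%). edgeR called 0 of them (0.00% of all genes), and DESeq2 with the block called 2 as higher, beside 0.501% of all genes. TRIM28, the corepressor that KRAB domains recruit, had a level of 464 ± 181 CPM with siNC against 413 ± 153 CPM with siAURKA (log2 fold change -0.17, SE 0.40, turning to 0.01 with offsets for GC and length). SETDB1 had a log2 fold change of -0.06 (SE 0.28), HDAC1 one of 0.37 (SE 0.28) and EHMT2, which encodes the methyltransferase G9a, one of -0.38 (SE 0.36). SUV39H2, which encodes another methyltransferase of histone H3, was at 7.97, 8.88 and 5.88 CPM in siNC and 16.7, 16.8 and 13.7 CPM in siAURKA. Its groups did not overlap, its log2 fold change was 1.06 (SE 0.31, unadjusted edgeR p 0.0108), and DESeq2 with the block called it at an adjusted p of 0.00226. FAM208A, the TASOR subunit of the HUSH silencing complex, was also called higher by that fit (adjusted p 0.0018), with 76.0, 12.03 and 17.9 CPM in siNC and 114.8, 44.7 and 53.9 CPM in siAURKA. Its groups overlapped, and library 1 was the highest in both.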

How the data were processed

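RNA was sequenced from 6 libraries of LX2 cells, 3 with siNC and 3 with siAURKA, grouped and numbered by their labels. The authors deposited 1 table of whole numbers for 58243 gene identifiers, taken as unscaled estimated counts. HISAT2 and GRCh38 are named in the submitters' processing notes. How reads were counted, with or without strand and against which annotation, is not given in the sources used here. Among the low deposited counts, 30.3% to 34.0% of the values from 1 to 24 per library are multiples of 4, where equal frequencies would give 25%, and how they arose is not known. Column totals may therefore overstate depth. Most of these low values are not multiples of 4, so 4 units per fragment is an assumption. Floors, taken as 3 fragments of 4 units, rest on it and cover counting error only.

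Identifiers were matched to GENCODE release 29 (57980 matched, 263 not), which gave symbols, positions, exons and GC content. Arms were split at 26 Mb. Rounding altered nothing. The main test was edgeR (quasi-likelihood, TMM factors, filterByExpr, no covariates), with Benjamini-Hochberg adjustment over 18775 genes at 0.05. CPM values use TMM factors, and a positive log2 fold change means a higher level in siAURKA. The edgeR test itself reports no SE. Each SE given is the size of the log2 fold change divided by the square root of the test's F statistic. With 3 against 3 libraries an exact permutation test could not go below p = 0.1, so none was run. Alternatives were DESeq2, limma-voom, a replicate block, other scalings, no filter, counts divided by 4, offsets for GC content and length (splines), leaving out libraries, and leaving out members that share over 10% of their 50-base stretches or overlap other exons by over 10%. The tests were also run on simulated counts in which same-numbered libraries shared their means. Such a run does not check the calls made in these data. Promoters came from RefSeq (GRCh38.p14).

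Members and gene lists were chosen with earlier results of these data known. Named members were the 10 most abundant per kilobase in siNC, up to 10 per direction with the same sign in all pairs and a mean of at least 40 units by smallest edgeR p, those called by edgeR or DESeq2, the most abundant of each cluster, and members with described roles. Of the partner list, TRIM28, SETDB1 and 4 more by smallest p were named. Besides these, members just listed at 0, non-overlapping or bounding a cluster are given by name. Markers of leukocytes, endothelium and cholangiocytes, and sums of the hepatocyte markers, stand in the closing section.

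Pairing by replicate number was checked on each library's deviation from its group mean (log2 CPM). Deviations of same-numbered libraries correlated at 0.647, 0.477 and 0.302 over all tested genes (0.724, 0.473 and 0.233 over members), and other combinations lay between -0.525 and 0.040. Because the group mean was subtracted, positive values for same-numbered libraries by themselves lower the other combinations, which are not separate evidence. Libraries of the same number were treated as pairs. That rests on the data, as the labels name no shared day. DESeq2 1.42.0, edgeR 4.0.16 and limma 3.58.1 ran in R 4.3.3. Tables and figures were made with matplotlib 3.10.9, numpy 2.4.6 and pandas 2.3.3 in Python 3.11.15.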

Additional observations from a re-analysis of the deposited data

How the results depend on the processing

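The number of called genes depended on the tool. It was 0 with edgeR and limma-voom, with and without the replicate block, 17 with DESeq2 and 246 with DESeq2 and the replicate block, of which 1 and 3 were members. Leaving out 1 library gave 0 to 2 called genes (2 without siAURKA library 2) and 0 to 0 called members. The log2 fold change of AURKA passed the threshold with DESeq2 (-1.29) and DESeq2 with the block (-1.28), and ran from -1.41 to -1.17 without 1 library.

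The median log2 fold change of tested members was above 0 under every setting run. It lay between 0.084 and 0.55 without 1 library, and on 19p between 0.0090 and 0.54, on 19q between 0.11 and 0.55. Without both libraries numbered 1, 2 or 3 (settings chosen after seeing the data) it was 0.37, 0.17 and 0.22. With the replicate block in edgeR it was 0.28 (19p 0.27, 19q 0.28), and with offsets for GC and length 0.21, or 0.23 with the block. The share of members above 0, also added after seeing the data, was 57.3% to 81.1% without 1 library. The block changed no call of edgeR.

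Of 48 named genes, 30 kept their sign throughout, 10 changed it in settings that kept or dropped whole pairs, and 18 without 1 library. ZNF428 turned to 0.095 and 0.092 with offsets with and without the block, 0.0071 with the block in edgeR, 0.052 with library totals, 0.0098 and 0.012 in limma-voom with and without the block, 0.022 with no filter, and 0.041 and 0.023 without pairs 2 and 3. ZNF865 turned to 0.19 and 0.21 with offsets with and without the block, 0.013 with library totals and 0.073 without pair 2. ZNF91 turned to 0.22 with DESeq2 and the block, 0.085 and 0.051 with offsets with and without the block, 0.23 with the block in edgeR, 0.011 with library totals, 0.044 and 0.20 in limma-voom with and without the block, 0.035 with no filter, and 0.46 and 0.039 without pairs 1 and 3. TRIM28 turned to 0.0078 and 0.0094 with offsets with and without the block. Leaving out a pair gave ZNF580 0.15 (pair 3), ZNF93 -0.53 (pair 2), ZNF302 -0.25 (pair 1), ZNF224 0.10 (pair 1) and 0.081 (pair 2), ZNF43 -0.012 (pair 2) and SETDB1 0.12 (pair 3). The cause was not tested.

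Without 1 library the value ran from -0.65 to 0.25 for ZNF358, -0.19 to 0.13 for ZNF428, -0.89 to 0.35 for ZNF787, -1.03 to 0.084 for ZNF581, -0.55 to 0.55 for ZNF865, -0.91 to 0.15 for ZNF580, -0.63 to 0.15 for ZNF574 and -0.61 to 0.26 for ZNF526. It ran from -1.02 to 0.045 for ZNF264, -0.47 to 0.0090 for ZNF653, -0.24 to 0.43 for ZNF93, -0.56 to 0.67 for ZNF302, -0.55 to 1.0 for ZNF91, -0.34 to 0.96 for ZNF331, -0.79 to 0.85 for ZNF224, -0.11 to 1.10 for ZNF43, -0.50 to 0.19 for TRIM28 and -0.17 to 0.048 for SETDB1.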

Other observations

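Summed levels of markers of other cell types overlapped between the groups. Hepatocyte markers (2 of 12 tested, SERPINA1 the most abundant) summed to between 16.5 and 46.3 CPM in siNC and between 19.1 and 35.3 CPM in siAURKA. Leukocyte and macrophage markers (7 of 9 tested, CD68 the most abundant) summed to between 49.0 and 125.7 CPM in siNC and between 58.2 and 105.8 CPM in siAURKA. Endothelial markers (4 of 8 tested, CLEC4G at 0) summed to between 5.63 and 10.5 CPM in siNC and between 10.3 and 16.9 CPM in siAURKA, and cholangiocyte markers (4 of 6 tested) to between 48.8 and 97.9 CPM in siNC and between 41.6 and 62.7 CPM in siAURKA. Sums can hide single genes. All 4 tested endothelial markers had log2 fold changes above 0 and all 4 tested cholangiocyte markers below 0, while the leukocyte markers had 4 above and 3 below. KRT7 ran from 4.61 to 6.59 CPM in siNC and from 2.92 to 4.12 CPM in siAURKA, without overlap (2.52% of all tested genes). EPCAM, not tested, was at 0 in siNC and at 0.16 to 0.73 CPM in siAURKA. The part of these markers in the results on ZNF genes was not tested.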
